A study of Drosophila melanogaster with 4 samples.

Results

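Of the 8282 reproducible peaks of tagged Eip78C in white prepupae, 574 (6.93%, 95% exact binomial interval 6.39 to 7.50) had their summit just downstream of a gene start. A summit is the position of highest signal in a peak. The 574 were chosen by position alone. Their nearest protein-coding transcription start site (TSS) lay 0 to 1000 bp away on the upstream side, and summits within 1 kb of a divergent pair were left out. A divergent pair here means protein-coding TSSs on opposite strands, head to head and 1 kb or less apart. Of the summits, 326 (56.8%, interval 52.6 to 60.9) lay in the first intron of a transcript that starts at that TSS and 215 (37.5%, interval 33.5 to 41.6) in its 5′ UTR. A further 7 lay in coding exons, and 26 lay elsewhere (13 in a later intron, 3 in a 3′ UTR and 10 past the end of a short transcript). For 20 of the 5′ UTR summits another transcript of the same TSS has its first intron there. The members belonged to 537 TSSs of 514 genes, and 37 TSSs had 2 members each. These 514 genes are 3.68% of the 13968 protein-coding genes. The other optimal peaks comprised 1600 with the summit 1 to 1000 bp upstream of the nearest TSS, 903 near divergent pairs and 5205 further away.

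The peaks came from chromatin immunoprecipitation and sequencing (ChIP-seq) with an antibody against GFP in 4 biological replicates, which form 1 group. Each was whole Drosophila melanogaster of pooled sex at the white prepupa stage, from 1 transgenic line that stably expressed Eip78C with GFP fused at the C-terminus. The labels do not state the insertion site or promoter of the transgene, or whether the endogenous gene was intact. No untagged or input sample was analysed here, so no background was measured the same way, and the lists carry no read counts, so depth is unknown. White prepupae hold many tissues, and a peak does not tell in which of them the site was bound. Eip78C belongs to the Rev-erb branch of the nuclear receptors, and ecdysone, the moulting hormone, induces its gene at the onset of metamorphosis. Receptors of this type bind, in vertebrates, a single receptor half-site with an A/T-rich flank on its 5′ side, and they are best known as repressors. In flies the sequence just downstream of a TSS holds the initiator and downstream promoter elements and the region where RNA polymerase II often pauses, and long first introns often hold enhancers.

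Short stretches of reference sequence show what lay at strong members and what did not. For each motif and class the stretch comes from the strongest member, on the arms whose sequence is shown here, that held the motif within 100 bp of its summit. Capitals mark the motif match, and each run reads 5′ to 3′ on the strand named, with RefSeq's dm6 sequence and 1-based positions. The class named is that of the summit, and the match can lie outside it. At Eip75B and CG32772 the summits were 44 and 54 bp past the TSS. Their marked matches lay 48 and 70 bp to the TSS side of the summit, and so upstream of the TSS. The motifs shown are the nuclear receptor half-site AGGTCA, the GAGA element GAGAG, the CA repeat ACACACAC and the core promoter element motif 1, GGTCACAC.
Eip75B, 5′ UTR, GAGA element, chr3L:17999810-17999839, plus strand: tcactagtaagtGAGAGattttaaatagag
CG32772, 5′ UTR, CA repeat, chrX:4909071-4909100, plus strand: cccacacatacACACACACggctcacgcat
RpL27A, 5′ UTR, motif 1, chr2L:4458330-4458359, minus strand: cgccgccgggcGGTCACACtgctacaaccg
DIP1, 5′ UTR, half-site, chrX:21630102-21630131, plus strand: ttttcactgctcAGGTCAcagaaagaatcg
CG42327, first intron, GAGA element, chr3R:11656702-11656731, minus strand: ttttgtctgtgtaGAGAGcggagctgagag
Cat, first intron, CA repeat, chr3L:18822882-18822911, minus strand: ttcctgccggcACACACACgcacacacatg
Mtp, first intron, half-site, chr2L:20922438-20922467, plus strand: aaacacctgtgcAGGTCAcatttccttgac
The half-site was the rarer word. Over all arms 9 of the 215 5′ UTR members and 9 of the 326 first intron members held it, against 71 and 79 with the GAGA element. On the arms shown, the strongest 5′ UTR member with the half-site was at DIP1 and ranked 1722. The strongest such first intron member, at Mtp (the microsomal triglyceride transfer protein of lipoprotein assembly), ranked 1517. Whether these ranks differ from those of any word as rare was not tested. The GAGA element was found at Eip75B (rank 286) and CG42327 (rank 56), 48 bp and 80 bp to the TSS side of the summit. Next to these, the centres of the 3 strongest first intron members shown here are given, with the longest unbroken run of A and T in capitals.
CG42327, summit centre, chr3R:11656781-11656810, plus strand: ttctgctaactttgagTATAgttgatagaa
LPCAT, summit centre, chrX:9579262-9579291, minus strand: atgcgAAATAcccgttaacctgcatttcaa
CG31612, summit centre, chr2L:21794927-21794956, minus strand: tgtgagtacgtttaagaacTAATAAATAAA
Of their 30 bases, 21, 18 and 23 were A or T, and the stretches at CG42327, LPCAT and CG31612 hold no GAGAG and no AGGTCA on either strand.

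The 5′ UTR and first intron members stood at different places. The 5′ UTR summits lay at a median of 76 bp from the TSS (quartiles 29.5 and 163.5 bp), and 86 of the 215 were within 50 bp. First intron summits lay at a median of 658.5 bp (quartiles 452.75 and 832.5 bp), 313.5 bp past the splice donor, and 229 of the 326 were 501 to 1000 bp from the TSS. Their introns were long, with a median of 2326 bp, and 245 of the 326 were longer than 1000 bp. Over the 16911 TSSs with a first intron, the median of the shortest one was 160 bp. Longer introns fill more of the window, so the rule itself favours them, and this part was not tested. An upstream summit at the same TSS accompanied 27 of the 5′ UTR members (12.6%, interval 8.44 to 17.7) and 70 of the first intron members (21.5%, interval 17.1 to 26.3). With a median width of 430 bp, 5′ UTR peaks this near the TSS can themselves cover the sequence just upstream. The part of this in the gap was not tested. Intervals are exact binomial ones over summits and cover counting error only.

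**Figure D1:**
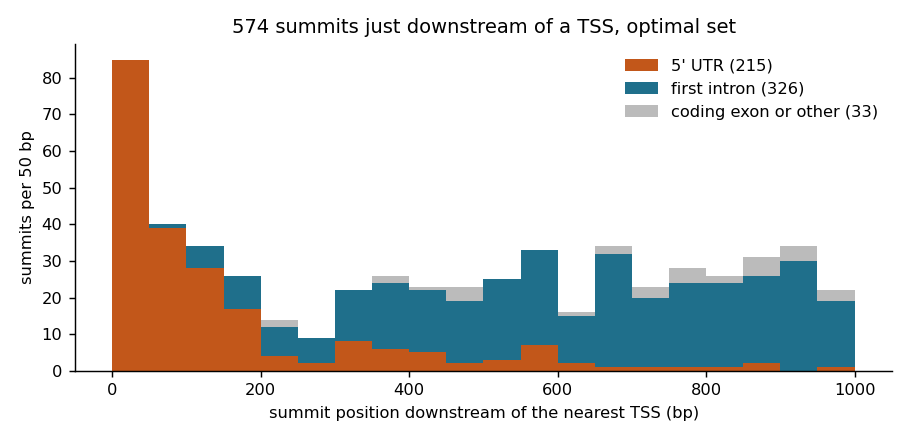
Number of optimal summits per 50 bp (y axis) against the distance downstream of the nearest TSS in bp (x axis), stacked by class. The 5′ UTR summits crowd at the TSS (86 within 50 bp), and most first intron summits (229 of 326) lie beyond 500 bp.

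Because the amount of 5′ UTR, intron and coding sequence changes with distance, summits were also counted per megabase of the sequence that could have held them. Coding exons were nearly empty. They held 1.61 summits per Mb over 4.35 Mb of coding sequence, against 86.9 per Mb in 5′ UTRs and 111 per Mb in first introns of the same window. In the 8282 strongest peaks of each replicate the density was 2.76 ± 0.593 per Mb in coding exons, 104 ± 24.7 in 5′ UTRs and 114 ± 4.67 in first introns (mean ± SD, n = 4). The highest coding value of any replicate, 3.45 per Mb, was far under the lowest 5′ UTR value, 76.4, so the classes did not overlap. The coding exons differed in composition too, with 53.3% G+C within 1000 bp of a TSS against 43.3% in 5′ UTRs and 38.9% in first introns, and the part of composition in the gap was not tested. The 7 coding summits were at CG44812, CG6163, sgg, mib1, CG1628, Lk6 and bip1. They ranked between 2274 (CG44812) and 8063 (bip1). These 7 genes are named here after their values were seen.

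In broad bands of distance the order of the classes changed with the distance from the TSS. Within 200 bp the 5′ UTR density was 129 ± 36.8 per Mb and that of first introns 70.4 ± 24.4 (mean ± SD, n = 4), and the 5′ UTR density was the higher one in 4 of 4 replicates (154 against 101, 85.0 against 43.3, 164 against 75.8 and 112 against 61.4). From 201 to 500 bp the values were 67.2 ± 11.4 and 85.9 ± 12.8 per Mb, and first introns were the higher class in 4 of 4 (82.1 against 104, 62.7 against 75.4, 68.7 against 85.6 and 55.2 against 78.5). From 501 to 1000 bp first introns held 138 ± 3.67 summits per Mb, between 133 and 142 in the 4 replicates, and 5′ UTRs 62.7 ± 5.71, between 56.8 and 70.2. In these bands each replicate thus had the denser class change from 5′ UTRs within 200 bp to first introns beyond it. Single 100 bp steps did not all follow this order. Replicate 1 had 217 per Mb in first introns (12 summits) and 167 in 5′ UTRs at 0 to 99 bp. It had 75.2 and 76.1 at 200 to 299 bp. Replicate 2 had 72.6 in first introns and 89.6 in 5′ UTRs at 300 to 399 bp. Little 5′ UTR lies 501 to 1000 bp out (0.299 Mb, with 19 members), so its density there rests on few summits.

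**Figure D2:**
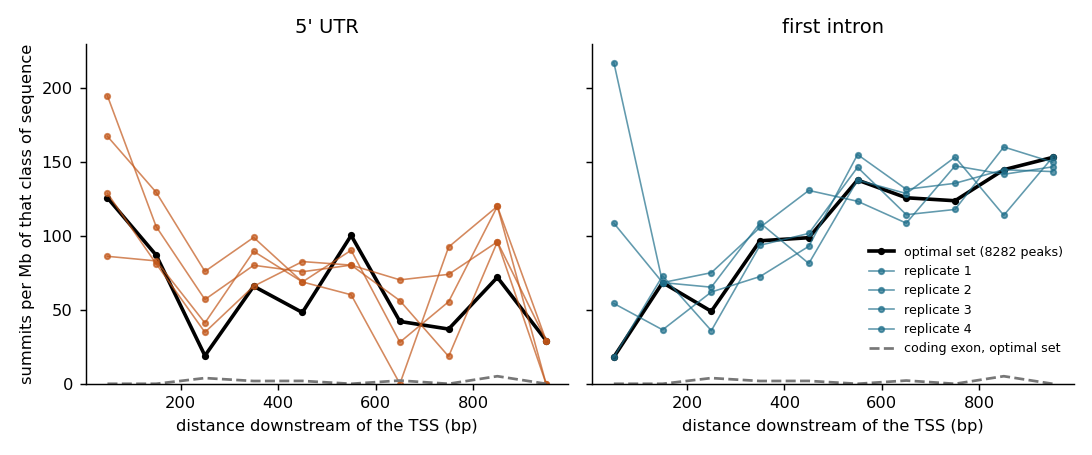
Summits per Mb of 5′ UTR (left) or first intron (right) sequence on the y axis, in 100 bp steps of distance from the TSS on the x axis, for the optimal set (black) and the 4 replicates (coloured lines); the dashed line is coding exon sequence in the optimal set. First intron density is steady across replicates beyond 500 bp (133 to 142 per Mb from 501 to 1000 bp), while the first 100 bp vary, where intron sequence is scarce and the replicate lines spread from 18.1 to 217 per Mb.

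Downstream summits were fewer than upstream ones, and the densities on both sides came close to each other towards 1000 bp. Of each replicate's 8282 strongest peaks, 694, 555, 685 and 591 lay downstream in replicates 1 to 4, and 1710, 1533, 1686 and 1705 upstream. Every replicate held at least 1533 upstream and at most 694 downstream summits. The downstream share was 7.62% ± 0.832 and the upstream share 20.03% ± 1.02, a difference of −12.4 ± 0.723 percentage points (SD, n = 4; exact two-sided sign-flip permutation test over replicates, p = 0.13, or 2 of 16 sign patterns, the smallest that 4 replicates allow). With only the first TSS of each gene it was −7.06 points. No contrast over these 4 replicates can therefore pass a threshold of 0.05. Density in the optimal set fell from 100 per Mb in the first 100 bp to 19.9 per Mb at 200 to 299 bp, where 23 summits lay. The replicates had 32.3 ± 7.95 per Mb there. At the same distance upstream they had 264 ± 10.3 per Mb. This step was the lowest downstream one in replicates 2, 3 and 4, and in replicate 1 it held 40.7 per Mb against 39.4 at 600 to 699 bp. At 800 to 899 bp the replicates had 58.1 ± 7.77 per Mb downstream and 56.0 ± 6.24 upstream, which did not differ beyond their spread, and from 900 to 1000 bp they had 56.5 ± 1.71 and 61.9 ± 3.95. These downstream densities include the nearly empty coding exons. From 900 to 1000 bp first introns alone held 148 ± 4.12 per Mb, 5′ UTRs 14.6 ± 16.9 and coding exons 1.37 ± 1.58. At 200 to 299 bp the values were 59.7 ± 16.8, 52.3 ± 18.4 and 4.84 ± 4.03. The part of the class mix in the downstream values was not tested.

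Base composition separated the classes at the summit itself. First intron members sat in a narrow A/T-rich dip, and the 5′ UTR members did not. The level at first intron summits was close to that of upstream summits and of all optimal summits, but the flanks of all optimal summits were not profiled. The median G+C content within 100 bp of the summit was 34.2% at first intron members, 34.5% at upstream summits, 34.5% over all optimal summits and 43.5% at 5′ UTR members. Upstream summits fell to 33.9% at their lowest 25 bp. The mean G+C content of first intron members was 35.3% within 100 bp of the summit and 43.4% at 300 to 500 bp on either side, and it reached 32.6% in the first 25 bp on the downstream side. The dip was present in every replicate, with differences of −8.04, −7.24, −6.46 and −7.34 percentage points in replicates 1 to 4 (mean −7.27 ± 0.651, SD). At 5′ UTR members the same differences were 1.43, −0.243, 3.33 and 1.81 points (mean 1.58 ± 1.47, SD). The 2 sets of replicate values did not overlap, and 5′ UTR members showed no dip of this kind. First intron sequence 501 to 1000 bp from a TSS has 38.8% G+C in general, which is above the summit value and below the flanks. The flanks of these members also take in exon sequence.

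**Figure D3:**
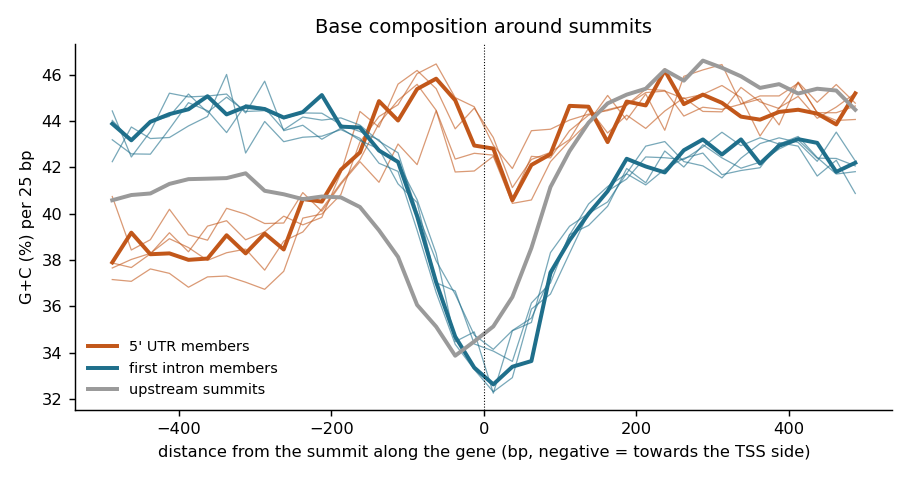
G+C content per 25 bp (%, y axis) against distance from the summit along the gene (bp, x axis; negative values lie towards the TSS side), for 5′ UTR members (orange), first intron members (blue) and upstream summits (grey); thick lines are the optimal set and thin lines the 4 replicates. First intron summits fall to 32.6% between flanks of about 43.4%, upstream summits fall to 33.9%, and 5′ UTR members stay above 40% within 100 bp of the summit.

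The 5′ UTR members were the weaker and less repeatable class. Strength was read as the rank of the authors' score within a list, given here as a percentile with 100 the strongest. The median percentile of 5′ UTR summits was 30.2, 40.2, 32.2 and 31.1 in replicates 1 to 4, and that of first intron summits 43.5, 47.1, 50.01 and 50.8. In every replicate the first intron summits stood higher, and the lowest first intron value exceeded the highest 5′ UTR value. The difference was −14.4 ± 5.65 points (SD, n = 4; exact two-sided sign-flip permutation test, p = 0.13). Downstream summits as a whole stood at 41.1 ± 3.60 and upstream ones at 53.3 ± 1.08, a difference of −12.2 ± 2.95 points that was negative in 4 of 4 replicates (same exact permutation test, p = 0.13). With 4141 peaks per replicate the differences were −7.92 points for 5′ UTR against first intron summits and −4.69 points for downstream against upstream ones. The former was also smaller with divergent pairs kept (−8.60) and within 500 bp of the TSS (−8.76). In both of these settings the replicates did not all share the sign (same exact permutation test, p = 0.25). In the optimal set the median rank was 5617 for 5′ UTR members, 4024 for first intron members and 3785.5 for upstream summits.

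An optimal peak was called met by a replicate when any of that replicate's 8282 strongest peaks overlapped it by at least 1 bp. All 4 replicates met 318 of the 574 members (55.4%), where the background over all optimal peaks was 61.1%. The count was 87 of 215 in 5′ UTRs (40.5%, interval 33.8 to 47.4) and 213 of 326 in first introns (65.3%, interval 59.9 to 70.5), so the first intron share was near the background and the 5′ UTR share under it. Single replicates met 75.8%, 62.8%, 82.3% and 75.3% of the 5′ UTR members and 83.7%, 84.0%, 85.3% and 89.0% of the first intron members. Replicate 2 met the fewest 5′ UTR members, and every replicate met a smaller share of them than of first intron members. The difference was −11.4 ± 7.86 percentage points (SD, n = 4; exact two-sided sign-flip permutation test, p = 0.13). Since 5′ UTR members are weaker, overlap was also counted in the 4141 strongest optimal peaks, where the difference was −1.53 points. Replicate 1 entered the thresholded set through the pooled reads alone, since only the separate lists of replicates 2, 3 and 4 were used for it.

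**Figure D4:**
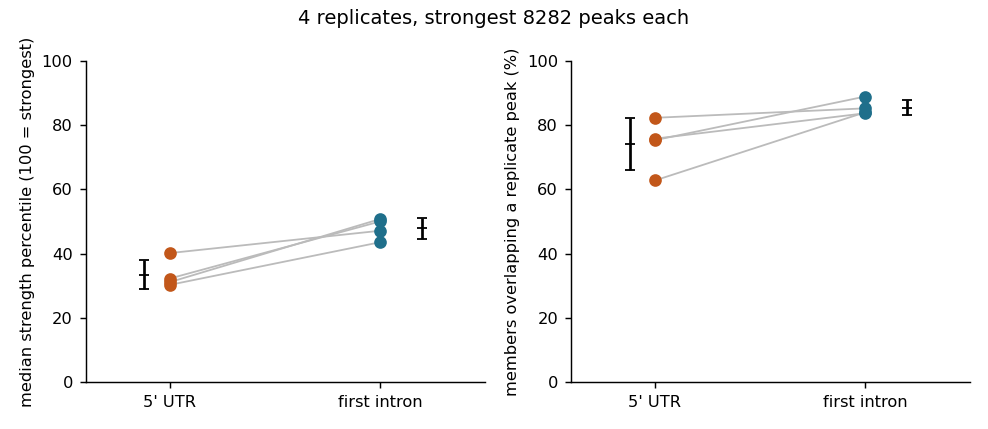
Median strength percentile of summits in each replicate's 8282 strongest peaks (left y axis) and the share of optimal members met by each replicate (right y axis, %), for 5′ UTR and first intron (x axis). Points are the 4 replicates, joined within a replicate, and bars are mean ± SD; first intron values stand above 5′ UTR values in all 4.

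Just past the optimal set in the pooled list, 5′ UTR summits took a larger share, which fell again further down. They made up 2.60% of the 8282 optimal peaks and 5.18% of the next 5000, while first intron summits went from 3.94% to 4.02%. In the following steps of 5000 the 5′ UTR share was 4.3%, 3.62% and 3.06%, and at ranks 28283 to 30000 it was 2.04%. First intron summits made up 3.3%, 3.26%, 3.22% and 2.62% of these same steps. Over 4 equal parts of the optimal set, strongest first, 36, 30, 57 and 92 of the 5′ UTR members and 92, 76, 84 and 74 of the first intron members were found. The number of 5′ UTR members thus rose towards the weak end, and the first intron number stayed within 74 to 92. These are values of 1 pooled list, with no replicate error of their own.

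Motifs were looked for within 100 bp of each summit on either strand, 17 in all. Matches describe the letters in this window and nothing about who binds there. The half-site AGGTCA, the letters a Rev-erb type receptor would read, lay at 9 of 215 5′ UTR members (4.19%) and 9 of 326 first intron members (2.76%), and at 4.03% of all optimal summits. Equally long windows placed 100 bp and 700 bp downstream of every protein-coding TSS held it in 4.01% and 6.75% of cases, so the 5′ UTR share was close to that of windows at 100 bp and the first intron share under that of windows at 700 bp. The windows at 700 bp had a median G+C content of 46%, against 34.25% at first intron members, and the part of composition was not tested. In the replicates it lay at 2.41% ± 0.541 of 5′ UTR and 3.20% ± 0.810 of first intron summits (SD, n = 4). With an added T on the 5′ side, TAGGTCA, it was found at 2 of the 5′ UTR members and 0 of 326 first intron members, which allows a share of up to 0.920% (3 counts of the total, counting error only). All optimal summits held this longer form in 1.05% of cases, and the windows 100 bp and 700 bp past all TSSs in 0.633% and 0.991%. First intron summits of replicates 1 and 4 did hold it, at 0.567% and 0.309%.

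The GAGA element, bound by GAGA factor at many fly promoters, was at 71 of the 5′ UTR members (33.02%) and 79 of the first intron members (24.2%), against 22.8% of all optimal summits and 21.3% and 21.4% of the windows 100 bp and 700 bp past all TSSs. Moved 500 bp further downstream of the same members, the windows held it in 57 5′ UTR cases (26.5%) and 99 first intron cases (30.4%), so at first introns it was less common at the summit than further on. In the replicates it was at 36.5%, 23.8%, 31.2% and 30.8% of 5′ UTR summits and at 23.5%, 22.5%, 25.4% and 23.5% of first intron summits. The 5′ UTR share was the higher one in 4 of 4, by 6.87 ± 4.84 percentage points, and replicate 2 had the smallest gap, 1.28 points (exact two-sided sign-flip permutation test, p = 0.13, Benjamini-Hochberg adjusted p = 0.21 over 17 motifs). Around 5′ UTR summits more matches lay on the TSS side than on the far side. There were 101 matches 101 to 150 bp to the TSS side and 83 at 201 to 250 bp, against 51 and 38 at the mirror distances on the far side. Overlapping matches each count, so a single long run can add several, and these are not counts of members. Near the summit the sides were closer, with 34 in the last 50 bp before it and 20 in the first 50 bp after it. In the 200 bp upstream of the TSS, 44.5% of the TSSs of 5′ UTR members and 48.6% of those of first intron members held GAGAG, beside 25.3% of all protein-coding TSSs and 45.7% of the TSSs of upstream summits.

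The CA repeat was more common near downstream summits than near upstream ones in every replicate, and as common 500 bp further on. It was at 20 of the 5′ UTR members (9.30%) and 19 of the first intron members (5.83%), while 3.1% of all optimal summits held it. In replicates 1 to 4 it was at 8.07%, 8.29%, 9.78% and 7.95% of downstream summits and at 3.63%, 3.13%, 3.68% and 3.58% of upstream ones. The lowest downstream value was over the highest upstream value, and the difference was 5.02 ± 0.805 percentage points (exact two-sided sign-flip permutation test, n = 4, p = 0.13, adjusted p = 0.236). Within 50 bp of the summit the difference was 1.96 points. Windows moved 500 bp further downstream of the same members held the repeat in 22 cases for 5′ UTRs (10.2%) and 19 for first introns (5.83%), so it did not stand out at the summit. Around first intron summits there were 3 matches in the 50 bp on either side, fewer than in any 50 bp step further out to 400 bp (12 to 55). Here too overlapping matches each count, so a single long repeat can add several. Windows 100 bp and 700 bp past all TSSs held it in 4.20% and 3.57% of cases.

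Core promoter words were found more often near 5′ UTR summits than near first intron summits. Motif 6 was the exception, at 0 of the 574 members and 0.423% of all optimal summits. Motif 1 lay at 8 of the 215 and 0 of the 326, with 1.23% of all optimal summits, and the DNA replication element (DRE) TATCGATA at 7 and 1, with 1.49% of all optimal summits. Motif 7, another such word, was at 13 and 6, with 3.34% of all optimal summits. In the replicates the gap between the classes was 3.66 ± 0.262 percentage points for motif 1, 2.36 ± 0.296 for DRE and 4.27 ± 1.39 for motif 7, positive in 4 of 4 each (exact permutation p = 0.13, adjusted p = 0.21). Windows 100 bp past all TSSs held motif 1 in 2.88% and DRE in 1.32% of cases, and windows 700 bp past them in 0.353% and 0.332%. The classes thus differed in the same order as plain windows at their distances. Around the TSS itself, from 100 bp upstream to 50 bp downstream, motif 1 and motif 7 were about as common in both classes. Motif 1 was at 6.16% of the TSSs of 5′ UTR members and 6.11% of those of first intron members. For motif 7 the shares were 5.69% and 5.47%, and for DRE 7.58% and 2.89%. All protein-coding TSSs held motif 1, motif 7 and DRE there in 5.55%, 6.37% and 6.27% of cases. Of the A/T-rich words, TATAAA lay within 100 bp of 49 5′ UTR members (22.8%) and 113 first intron members (34.7%), with 35.1% of all optimal summits. The replicate gap was −13.7 ± 0.435 points. The classes' difference in base composition, given above, goes with it, and its part was not tested. A TATA box at its usual place, 15 to 45 bp upstream of the TSS, was at 4.74% of the TSSs of 5′ UTR members and 4.50% of those of first intron members, and at 7.76% of all protein-coding TSSs. The TSSs of upstream summits had a like share, 4.80%.

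The strongest 5′ UTR member was at GstE13 (FBgn0033381), an epsilon-class glutathione transferase of detoxification. Its summit at 9122207 on arm 2R was 82 bp from the TSS and ranked 43, 37, 29 and 32 in replicates 1 to 4 (mean 35.2 ± 6.13, SD) and 33 in the optimal set. The position was as steady as the rank, with an SD of 2.06 bp between the replicate summits. No other 5′ UTR member came near this rank. The next were pnut, a septin, at rank 190, and Fbl6, an F-box protein, at rank 214. They were followed by CG12316 (251) and Sqor (258), the mitochondrial sulfide quinone oxidoreductase. CG9399 ranked 279.

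Eip75B, which encodes the other Rev-erb type receptor of the fly and is itself an early ecdysone gene, also belonged to the 10. Its summit at 17999777 on arm 3L was 44 bp past the TSS, with replicate ranks of 220, 425, 362 and 286 (mean 323 ± 89.3, SD, n = 4). All 4 replicates placed it among their 425 strongest peaks. CAH3, a carbonic anhydrase, ranked 448, and Ufsp1, a protease for the ubiquitin-like protein UFM1, ranked 464. Raf, the kinase that carries the Ras signal to the MAP kinase cascade, closed the 10 at rank 465 with replicate ranks of 438, 432, 757 and 408. Its summit lay 828 bp from the TSS, the furthest of the 10. Fbl6 followed at 526 bp, and the other 8 summits lay between 22 bp (Ufsp1) and 150 bp (CG12316).

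Among first intron members CG42327 was the strongest. Its summit at 11656796 on arm 3R was 647 bp from the TSS in an intron of 10684 bp, with replicate ranks of 40, 59, 42 and 88 (mean 57.2 ± 22.2, SD, n = 4). LPCAT, a lysophospholipid acyltransferase of membrane lipid remodelling, ranked 104, 82, 127 and 48 (mean 90.2 ± 33.6) with its summit 710 bp from the TSS. Both genes also had a summit upstream of the same TSS. CG31612 ranked 122, mub, a KH-domain RNA-binding protein, 135, and Pen, an importin alpha of nuclear import, 158. Pen's intron is short among these members, 417 bp, as is that of CG9135 (rank 222), 549 bp. Fem-1 ranked 180 and CG7694 ranked 227. Another gene, FBgn0023083, starts at the same TSS as CG7694, so that summit belongs to both. The gene spri, for a Ras-binding protein of endocytosis, ranked 238, and Ptp4E, a receptor tyrosine phosphatase, 244. The 10 summits lay between 404 bp (Ptp4E) and 939 bp (mub) from the TSS.

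**Figure D5:**
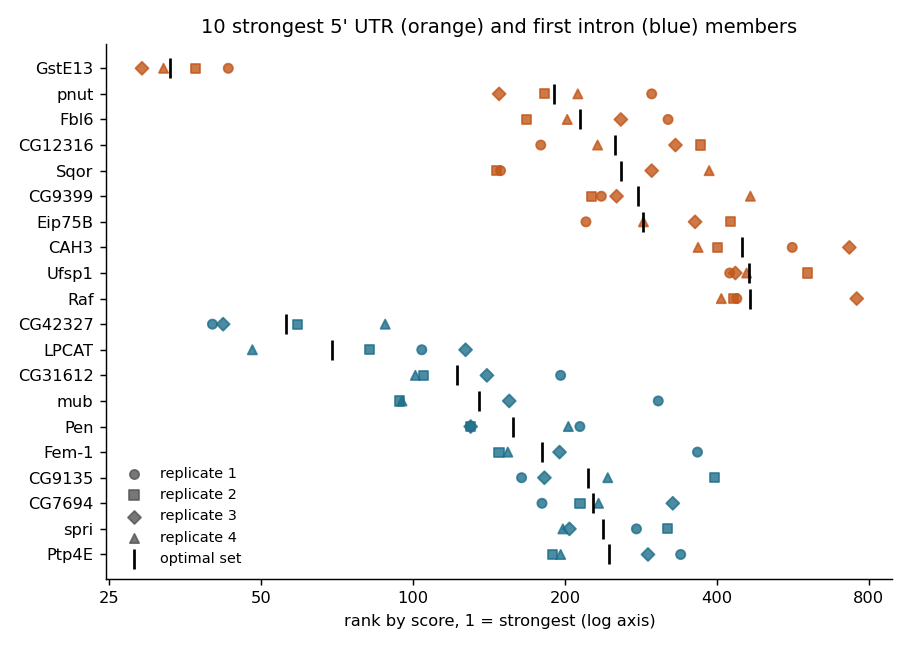
Rank by score (x axis, log scale, 1 the strongest) of the 10 strongest 5′ UTR members (orange) and the 10 strongest first intron members (blue), 1 gene per line on the y axis. Symbols are the 4 replicates and the black bar the optimal set; GstE13 stands between 29 and 43, and the other 19 genes lie between 40 and 757.

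Some members of the ecdysone response carried summits here, mostly weak. Of 25 listed ecdysone response genes, 6 had a member, and of 21 nuclear receptor genes 3, all of them 5′ UTR summits. Beside Eip75B, the calcium-binding protein gene Eip63F-1 had a first intron summit 471 bp from the TSS with replicate ranks of 2079, 1051, 1357 and 785 (mean 1318 ± 559, SD). The other 4 ranked 4484 or weaker. Eip63E, a cyclin-dependent kinase, had a first intron summit at 820 bp (rank 4484). EcR, the ecdysone receptor, had a 5′ UTR summit at 850 bp (rank 4679). Eip78C itself had one at 32 bp (rank 5001, met by 3 replicates), with replicate ranks of 3300, 6753, 10348 and 7171. The vri summit, in the gene of a bZIP repressor that also belongs to the clock, was at 46 bp (rank 6286). Replicate ranks are those of the strongest overlapping peak among the 30000 of a replicate, so they can exceed 8282.

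Several signalling genes had first intron summits at the outer part of the window, where most first intron members lie (229 of 326 at 501 to 1000 bp). Of 14 EGFR and Ras pathway genes 5 had a member. Next to Raf these were aop, an ETS repressor, with a summit at 940 bp (rank 2331) and one at 46 bp (rank 5596), the ligand gene spi at 935 bp (rank 2398), the ETS activator gene pnt at 888 bp (rank 3384), and rho, whose protease releases the ligand, at 839 bp (rank 3870) and 13 bp (rank 7144). The 4 first intron summits all lay 839 to 940 bp from the TSS. They were met by all 4 replicates, as were 65.3% of all first intron members. Of the 19 Notch, Wnt, Hedgehog and Dpp genes 3 had a member, all in first introns. These were the receptor gene tkv at 560 bp (rank 4780), the Notch ligand gene Ser at 681 bp (6874) and Mad, a Smad, at 874 bp (6885). In the Hippo list Mer, with a first intron summit at 100 bp, ranked 1404 and the TEAD factor gene sd 7948, 2 of 11 genes. In the JNK and matrix list the phosphatase gene puc had a 5′ UTR summit 18 bp from the TSS, with replicate ranks of 738, 875, 287 and 1006 (mean 726 ± 313), and kay, the Fos gene, one at 27 bp with ranks from 4438 to 22600.

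Clock and cell death genes had single strong members. Of 12 circadian genes 4 had one. The kinase gene sgg led with a first intron summit at 967 bp that ranked 748, 638, 656 and 774 (mean 704 ± 67.1, SD). The others were dco, a casein kinase gene (rank 5577), vri and the repressor gene cwo (rank 7380). Diap1, the inhibitor of caspases, had a first intron summit at 662 bp that ranked 335, 409, 487 and 353 (mean 396 ± 68.4), and the lipid phosphatase gene wun ranked 4996, so 2 of 12 cell death genes had a member.

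Of the metabolic and growth lists, Mtp (rank 1517) and Lpin, a phosphatidate phosphatase gene (rank 3848), were 2 of 12 lipid metabolism genes. Thor, the translation repressor 4E-BP (rank 3886), and InR, the insulin receptor (rank 7700), were 2 of 18 insulin and growth genes. Thor and pAbp, the poly(A)-binding protein with its strongest summit 489 bp from the TSS (rank 420), were 2 of 12 translation factor genes. In the actin cytoskeleton list Moe, a linker of actin to the membrane (rank 3846), and shot, a spectraplakin (rank 7865), were 2 of 14. Single members came from the neuron list (elav, rank 4122), the trachea and epidermis list (grh, rank 1261) and the 70 cuticle protein genes (Cpr47Ec, rank 4703). Of 85 cytoplasmic ribosomal protein genes 3 had one, all within 7 bp of the TSS: RpL24 at 0 bp (rank 901), RpS29 at 5 bp (rank 4174) and RpL27A at 7 bp (rank 2273).

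None of the 14 heat shock genes, 179 chemosensory receptor genes, 10 muscle, 8 fat body, 7 hemocyte and 8 testis marker genes had a member. With the 22 lists read against the background of 3.68% of genes, the ribosomal protein list (3.53%) was near it. The lists with the largest shares were EGFR and Ras signalling (35.7%), circadian (33.3%) and ecdysone response (24%). Listed genes differ in length and number of TSSs, so these shares are counts without a test.

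The members were spread over the arms, with 88 on 2L, 119 on 2R, 104 on 3L, 131 on 3R, 1 on 4 and 131 on X. Arm 2R held 20.7% of them (interval 17.5 to 24.3) and 17.0% of the optimal set. Arm 3L held 18.1% (interval 15.1 to 21.5) against 22.5%, and X held 22.8% (interval 19.4 to 26.5) against 19.1%. At the edges of the window, RpL24 had the summit nearest to the TSS, at 0 bp. Ndf at 993 bp (rank 7152), CG3328 at 994 bp (rank 2536) and Fim at 998 bp (rank 1450) were the last inside. The first outside were cue at 1003 bp (rank 3492), Svil at 1004 bp (rank 192) and CG3078 at 1014 bp (rank 7727), so a strong peak lies just past the limit.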

How the data were processed

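Peak lists of 4 replicates, a list called on the replicates pooled, and a joint list thresholded by irreproducible discovery rate (the optimal set) were analysed on dm6. Per the file headers, each replicate list was called against a control alignment, and the joint list was derived from replicates 2, 3 and 4 and the pooled list. Neither headers nor labels name the aligner, peak caller or threshold. The authors' lists give a signal score and −log10 of a q-value per peak; the score, on a scale not stated, only ranked peaks within a list. In 5 of 5 columns the optimal set equalled the 8282 strongest deposited pooled peaks. It has 8164 different intervals, and 14 members share theirs with another summit.

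TSSs, 5′ UTRs and introns came from Ensembl release 115. Annotated arms fitted within the RefSeq dm6 sequence. Where transcripts disagreed, 5′ UTR went before first intron, then coding exon. Replicates were compared by their 8282 strongest peaks, with exact two-sided sign-flip permutation tests (Python 3.11.15, numpy 2.4.6, pandas 2.3.3, matplotlib 3.10.9). P-values measure the spread between 4 biological replicates of 1 line. Placement and motif search were tested on simulated data. The members, gene lists, motifs and tests were chosen with earlier results of these data known, and 2 list entries (Delta and mTor) were corrected after values were seen. The rule names the 10 strongest members of either class, listed ecdysone and nuclear receptor genes, up to 4 genes per other list and those at the window's edges. Motifs overlap: GAGAG lies within its longer form and CGATA within DRE. The dm3 lists were not used.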

Additional observations from a re-analysis of the deposited data

Results flagged for a closer look

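Among 59 sets of 4 replicate values, 5 had 1 replicate far from the other 3 by Dixon's criterion, which chance meets in about 1 set in 20. The upstream share was 18.5% in replicate 2 and 20.4% to 20.6% in the others. CG9399 ranked 466 in replicate 4 and 226 to 253 in the others, and Raf ranked 757 in replicate 3 and 408 to 438 in the others. The DRE share of 5′ UTR summits was 3.13% in replicate 4 and 2.55% to 2.65% elsewhere. The motif 7 share was 3.95% in replicate 1 and 6.35% to 6.70% elsewhere.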

How the results depend on the processing

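The means of the 5 contrasts over replicates kept their direction under each alternative tried, with 1 exception. Members were met less often than the other optimal peaks by 2.97 percentage points (a difference of −2.97), and among the 4141 strongest optimal peaks the difference was 0.242. Without replicate 2 the difference over all optimal peaks was −1.27. Single replicates did not always share the direction of the mean, and the exact two-sided sign-flip permutation p then exceeds 0.13. For members met it was 0.875 with divergent pairs kept, and 0.25 in a window of 500 bp and with only the first TSS of each gene. For the 5′ UTR minus first intron percentile it was 0.25 with divergent pairs kept and in a window of 500 bp. Several alternatives moved a contrast by over 1.5 times: 4141 peaks per replicate gave −4.69 for the downstream minus upstream percentile and −7.92 for the 5′ UTR minus first intron percentile, which was −8.60 with divergent pairs kept and −8.76 in a window of 500 bp; only the first TSS of each gene gave −7.06 for the downstream minus upstream share; the window of 500 bp gave −4.76 for members met; and the 4141 strongest optimal peaks gave −1.53 for 5′ UTR minus first intron members met. Leaving out 1 replicate, the contrasts ranged from −12.6 to −12.1 points for the downstream minus upstream share, −16.9 to −12.7 for the 5′ UTR minus first intron percentile, −13.1 to −11.1 for the downstream minus upstream percentile and −14.3 to −8.16 for 5′ UTR minus first intron members met. The number of members was 877 with summits near divergent pairs kept, 302 in a window of 500 bp, 248 among those 4141 peaks and 318 when all 4 replicates had to meet a member. It was 485 with only the first TSS of each gene, 370 of them among the 574. Within 50 bp of the summit, where windows hold fewer bases, the 5′ UTR minus first intron share was 3.17 points for GAGA and −8.40 for the TATA box. Of the motif contrasts named, the half-site gap between 5′ UTR and first intron summits turned from −0.799 to 1.29 points with 4141 peaks per replicate. Every contrast is a difference within a replicate, so both classes are paired by replicate in all fits, and the samples form 1 group with no pairing across groups. Depth is unknown, no untagged sample was analysed, and the smallest p that 4 replicates allow is 0.13 (2 of 16 sign patterns).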
